A study of Mus musculus with 37 samples.

Results

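The contractile genes of myofibroblasts and smooth muscle were followed through the 3 RNA sequencing experiments of a study of ENPP1, an enzyme on the cell surface that cleaves extracellular ATP to AMP. The 10 genes were listed by name, as Acta2, Actg2, Tagln, Cnn1, Cnn2, Tpm2, Lmod1, Myl9, Myh11 and Mylk, with earlier results of these data known. All 10 are listed among the 30892 genes of the cardiac fibroblast (CF) table, where 9 had enough reads to enter the test of 17879 genes and Actg2 did not. All 10 were among the 13461 genes tested of 20158 in the neonatal rat ventricular myocyte (NRVM) table, and all 10 were found by Ensembl identifier among the 31053 genes of the single-cell tables.

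The CFs were an immortalized line from wild type C57BL/6 mouse hearts, so all CF libraries share SV40 antigen and 1 line. They were kept for 24 h or 48 h in myocyte-conditioned medium (MCndM), that is, medium taken from NRVMs that had received vehicle, ENPP1, ATP, ENPP1+ATP or AMP, with 2 libraries for each of the 5 media at each time (20 libraries). NRVMs from wild type Sprague-Dawley rats had 3 libraries for each of the same 5 treatments at 24 h (15 libraries), and their labels also describe conditioned medium. Nonmyocytes were taken 7 days after coronary ligation from ENPP1CKO hearts (Col1a2CreERT; ENPP1 fl/fl, tamoxifen from 5 days before to 7 days after injury) and from control hearts on the C57BL/6 background, with 1 single-cell library of each. Col1a2CreERT acts in cells that use a collagen promoter, hence in fibroblasts foremost, and the number of hearts per library is not given in the sources used here. The study's statistics describe its replicates as biological, but no label says that the bulk libraries came from separate cultures, so p-values measure the spread between these libraries, which may be technical.

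When a fibroblast becomes a myofibroblast after injury it builds stress fibres of smooth muscle type, in which smooth muscle α-actin (Acta2) forms thin filaments pulled by nonmuscle and smooth muscle myosin. Force is switched on when myosin light chain kinase (Mylk) phosphorylates the regulatory light chain (Myl9), and calponins, transgelin, tropomyosin and leiomodin bind and order the actin filament. In vascular smooth muscle the same genes are part of the resting state. Serum response factor with its myocardin-related partners binds CArG boxes, and TEAD factors bind CATTCC (the MCAT element), in the promoters of many genes of this program.

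Promoter stretches are shown for the members in which either element was found, because these members did not share a direction in the bulk data below. The sequences are from RefSeq (GRCm38.p6), run 5′ to 3′ on the strand of the gene with 20 bases on each side of the match, and the capitals mark the matched letters.
Acta2: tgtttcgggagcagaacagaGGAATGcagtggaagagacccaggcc
Cnn2: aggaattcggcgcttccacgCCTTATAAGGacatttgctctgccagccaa
Myl9: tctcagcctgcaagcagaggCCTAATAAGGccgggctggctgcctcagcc
Lmod1: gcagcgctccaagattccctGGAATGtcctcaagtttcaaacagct
Mylk: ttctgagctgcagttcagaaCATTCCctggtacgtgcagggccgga

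The Acta2 stretch is chr19:34255494-34255539 on the minus strand, and GGAATG is CATTCC on the opposite strand, from 146 to 141 bases before the start. Cnn2 (chr10:79988524-79988573) and Myl9 (chr2:156775283-156775332), both on the plus strand, hold a CArG box from 56 to 47 and from 161 to 152 bases before their starts. On the plus strand, Lmod1 (chr1:135324663-135324708) holds the opposite-strand form from 130 to 125 bases and Mylk (chr16:34784772-34784817) holds CATTCC from 158 to 153 bases before the start. Both strands of the 250 bases before the start were searched in the 7 members with an entry. A CArG box was taken only as CC and GG around letters A or T alone. Forms with a G or C in the core were not searched, so a member without a match may still hold one. Cnn1 and Tpm2 held neither set of letters, and Tagln, Actg2 and Myh11 were not matched. Of all 32851 promoters, 1.47% held a CArG box and 12.6% held CATTCC in a window of that length. These matches describe the letters only and are not evidence of binding. In the GENCODE vM21 annotation of GRCm38, Acta2 (ENSMUSG00000035783) spans chr19:34241090-34255590, Tagln (ENSMUSG00000032085) chr9:45929619-45936058 and Tpm2 (ENSMUSG00000028464) chr4:43514711-43523765, all on the minus strand. The Acta2 stretch lies inside this gene span, which begins further upstream than the RefSeq start from which the positions are counted. The Mylk stretch likewise lies inside the span of Mylk (chr16:34745210-35002420), before a start within the gene. Of the 50-base stretches of the exons, 58.3% in Tagln (with Gm48529 and Pcsk7), 4.56% in Mylk, 0.340% in Myh11 (with Myh9 and Myh10) and 0.326% in Acta2 (with Actg1 among others) also occur in other genes, so the Tagln counts are uncertain.

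CF libraries held 32184799 to 115824659 reads and NRVM libraries 13481389 to 16977980. Variation between replicates, as edgeR's biological coefficient of variation, came to 0.0590 for the CF and 0.0499 for the NRVM tables, and no 2 libraries were identical. Among the fibroblast markers of the CFs, Lum and Mfap5 averaged under 1 CPM (reads per 1000000 reads, with TMM-scaled library sizes) over the CF libraries, as did 9 of the 11 smooth muscle or pericyte markers in the table, Notch3 and Mcam being the others. The summed CPM of the 10 fibroblast markers was 7149 to 7544 in vehicle CFs at 24 h, 3549 to 3642 after ENPP1+ATP, 2784 to 3011 after AMP and 5183 to 5513 after ATP MCndM, and at 48 h 7043 to 7447, 3812 to 4023, 4008 to 4288 and 6872 to 6876. The summed dividing-cell markers were 1138 to 1154 in vehicle CFs at 24 h against 2725 to 2995 after ENPP1+ATP and 2602 to 2903 after AMP, and at 48 h 1181 to 1196 against 1673 to 1729 and 1634 to 1651. Those of smooth muscle or pericytes were at 155 to 159 CPM in vehicle at 24 h, 216 to 218 after ENPP1+ATP, 212 to 229 after AMP and 125 to 134 after ATP. At 48 h they were 164 to 171 CPM in vehicle, 401 to 417 after ENPP1+ATP, 444 to 469 after AMP and 169 to 190.1 after ATP. Most of the 48 h sum was Notch3 (126 to 131 CPM in vehicle, 349 to 361 after ENPP1+ATP and 392 to 419 after AMP), while Rgs5, a pericyte gene, was at 0.184 and 0.270 CPM in vehicle, 1.93 and 1.84 after ENPP1+ATP and 2.12 and 2.01 after AMP. The summed macrophage markers, 8 of 12 of them under 1 CPM on average, were 15.9 to 18.3 CPM in vehicle at 24 h, 34.5 to 42.3 after ENPP1+ATP and 58.7 to 61.8 after AMP, and 16.7 to 18.1, 73.1 to 83.9 and 77.9 to 88.5 at 48 h. Among these markers Cd68 varied most over all CF libraries, from 1.92 to 64.8 CPM, against 0.735 to 9.68 for Csf1r. Cd14 was at 6.35 to 12.96 CPM and Lyz2 at 3.47 to 6.05. The markers under 1 CPM on average reached at most 0.167 CPM in any library (C1qa). The part of these marker shifts in the results below was not tested, and in bulk RNA fewer cells of a type and less RNA per cell cannot be told apart.

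Members differed widely in level in vehicle CFs at 24 h. On the scale of CPM per kb of exon, Cnn2 was at 113 ± 1.38 (SD, n = 2), Acta2 at 34.1 ± 1.48, Tpm2 at 26.4 ± 2.10 and Myl9 at 2.32 ± 0.305. Mylk, at 0.341 ± 0.0326, and Tagln, at 0.266 ± 0.0853, differed by less than the SD of Tagln, though by more than that of Mylk. Below them lay Lmod1 at 0.106 ± 0.0307, Myh11 at 0.0469 ± 0.0142, and Cnn1 at 0.0180 ± 0.0118 and Actg2 at 0.00844 ± 0.0119, the last pair within their SDs. By these counts the immortalized line carried Acta2, Cnn2 and Tpm2 at clear levels. Tagln, a usual companion of Acta2 in myofibroblasts, was at under 3 CPM in every library, from 0.261 to 2.12 CPM. Of its 1988 exon bases, 1349 lie opposite exons of other genes. How reads there were counted is not given, so reads of Tagln may have been lost, which was not tested.

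**Figure D1:**
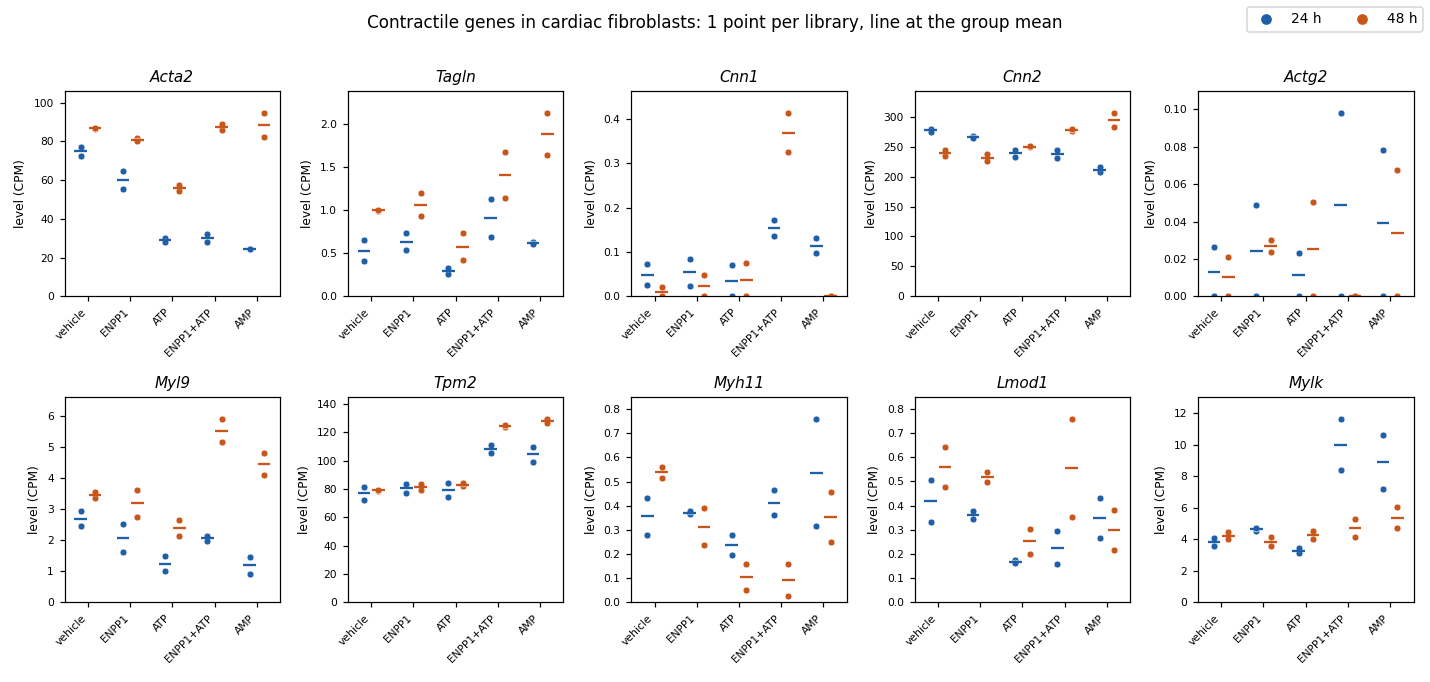
Level of each of the 10 contractile genes in CPM (y axis, one scale per panel, starting at 0) in CFs kept in the 5 media (x axis). Points are libraries (24 h blue, 48 h orange) and lines are the means of 2; Acta2 at 24 h lies at 24.3 to 32.4 CPM in the ENPP1+ATP, ATP and AMP media against 72.7 and 77.2 CPM in vehicle, while Tpm2 is highest in the ENPP1+ATP and AMP media at both times.

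Acta2 fell after 24 h in each medium that had received a nucleotide and at 48 h was still lower in ATP MCndM, whereas ENPP1+ATP and AMP MCndM were within 0.03 of vehicle on the log2 scale. At 24 h it was at 77.2 and 72.7 CPM in the 2 vehicle libraries, 28.1 and 32.4 after ENPP1+ATP, 24.6 and 24.3 after AMP, 30.1 and 28.2 after ATP and 64.6 and 55.5 after ENPP1 alone. All treated libraries lay below both vehicle libraries. The log2 fold change against vehicle was -1.31 ± 0.076 (SE, adjusted p = 4.91e-13) for ENPP1+ATP, -1.62 for AMP (adjusted p = 8.09e-15) and -1.36 for ATP (adjusted p = 4.49e-11), all from edgeR's quasi-likelihood test. For ENPP1 alone it was -0.32 ± 0.072 (edgeR adjusted p = 1, unadjusted p = 0.00017), and with no filter on low counts the adjusted p was 0.00166.

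At 48 h Acta2 was at 86.3 and 87.0 CPM in vehicle, 85.8 and 88.9 after ENPP1+ATP, 94.5 and 82.2 after AMP, 54.4 and 57.5 after ATP and 81.6 and 80.0 after ENPP1 alone. Only the ATP medium then stood apart from vehicle by the test, with a log2 fold change of -0.63 ± 0.073 (adjusted p = 1.44e-06), against 0.01 ± 0.072 for ENPP1+ATP (adjusted p = 0.911) and 0.03 for AMP (adjusted p = 0.794). The change in the ENPP1+ATP effect between the times was itself tested and was 1.32 ± 0.104 on the log2 scale (adjusted p = 1.05e-09), and that of AMP was 1.65 (adjusted p = 2.22e-11). ENPP1+ATP did not differ from ATP alone at 24 h by the test (log2 fold change 0.05, adjusted p = 0.643) and was higher at 48 h (0.64, adjusted p = 1.17e-07). AMP gave a lower level than ENPP1+ATP at 24 h (-0.31, adjusted p = 0.0208), a call that was lost in 3 of 4 fits with 1 library left out (adjusted p = 0.0598 without AMP replicate 1, 0.0709 without AMP replicate 2 and 0.235 without ENPP1+ATP replicate 2).

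Tpm2, the β-tropomyosin that lies along the actin filament, moved the other way and stayed there. At 24 h its level was 81.1 and 72.5 CPM in vehicle, 111 and 105 after ENPP1+ATP, 110 and 99.1 after AMP, and 84.5 and 74.5 after ATP. At 48 h it was 78.6 and 79.4 in vehicle, 124 and 125 after ENPP1+ATP, 129 and 127 after AMP, and 81.9 and 84.1 after ATP. The ENPP1+ATP and AMP libraries lay above all vehicle and ATP libraries at both times. Log2 fold changes against vehicle were 0.49 ± 0.063 (adjusted p = 4.02e-07) and 0.66 ± 0.063 (adjusted p = 4.33e-09) for ENPP1+ATP at 24 h and 48 h, and 0.44 (adjusted p = 1.81e-06) and 0.69 (adjusted p = 1.5e-09) for AMP. ATP alone gave 0.05 at 24 h and was not called at either time, and ENPP1+ATP exceeded ATP by 0.44 (adjusted p = 2.78e-06) and 0.58 (adjusted p = 4.9e-08).

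Cnn2, the calponin found in many nonmuscle cells and the most abundant member per length, fell slightly at 24 h and rose slightly at 48 h. Its level at 24 h was 280 and 275 CPM in vehicle, 231 and 245 after ENPP1+ATP, 207 and 215 after AMP, and 245 and 233 after ATP. At 48 h it was 234 and 244 CPM in vehicle, 276 and 280 after ENPP1+ATP, 306 and 283 after AMP, and 249 and 251 after ATP. The order of the groups was thus turned over between the times without overlap with vehicle. At 24 h the log2 fold change was -0.22 ± 0.047 for ENPP1+ATP (adjusted p = 0.000367), -0.39 for AMP (adjusted p = 1.29e-07) and -0.22 for ATP (adjusted p = 0.00263), the last lost without ATP replicate 2 (adjusted p = 0.082) or vehicle replicate 1 (adjusted p = 0.0506). At 48 h it was 0.22 for ENPP1+ATP (adjusted p = 0.000468) and 0.30 for AMP (adjusted p = 9.41e-06), and the difference between the times was 0.44 (adjusted p = 1.56e-05) and 0.69 (adjusted p = 1.6e-08). Vehicle CFs themselves had a lower Cnn2 level at 48 h than at 24 h (log2 fold change -0.21, adjusted p = 0.00675), a call that 3 of 4 fits with a library left out did not make.

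Of the proteins of the thick filament and its switch, Mylk, the kinase, rose at 24 h only. Its level was 4.10 and 3.58 CPM in vehicle, 11.6 and 8.38 after ENPP1+ATP, 10.6 and 7.17 after AMP, and 3.16 and 3.42 after ATP. The libraries of the first 2 media all lay above the vehicle libraries, although their own replicates differed by more than 2 CPM. The log2 fold change was 1.37 ± 0.189 for ENPP1+ATP (adjusted p = 1.32e-06) and 1.19 ± 0.188 for AMP (adjusted p = 8.47e-06), and ENPP1+ATP exceeded ATP by 1.60 (adjusted p = 3.28e-07). At 48 h the vehicle libraries were at 4.44 and 4.04 CPM, those after ENPP1+ATP at 4.15 and 5.28 and those after AMP at 4.71 and 6.05, with log2 fold changes of 0.15 (adjusted p = 0.58) and 0.35 (adjusted p = 0.163). The effects of both media on Mylk differed between the times, by -1.22 (adjusted p = 0.00127) and -0.84 (adjusted p = 0.0195), the latter lost in 4 of 8 fits without 1 library. Exons of Mylk share 772 of 11263 bases with genes on the opposite strand, and whether the counting used strand is not given in the sources used here.

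Myl9, the regulatory light chain, was low in all CF libraries, from 0.924 to 5.90 CPM. At 24 h it was at 2.95 and 2.45 CPM in vehicle, 2.13 and 1.99 after ENPP1+ATP, 0.924 and 1.46 after AMP, and 1.48 and 1.00 after ATP. The log2 fold change was -0.40 ± 0.195 for ENPP1+ATP, which was not called, -1.15 ± 0.255 for AMP (adjusted p = 0.000486), and -1.13 for ATP (adjusted p = 0.00476), lost without ATP replicate 2 (adjusted p = 0.122) or vehicle replicate 1 (adjusted p = 0.0934). At 48 h it was 3.35 and 3.56 CPM in vehicle, 5.90 and 5.17 after ENPP1+ATP, 4.09 and 4.81 after AMP, and 2.65 and 2.15 after ATP. Here ENPP1+ATP gave the highest levels of the 5 media, at a log2 fold change of 0.68 (adjusted p = 0.0211) against vehicle, lost in 3 of 4 fits with 1 library left out (adjusted p = 0.106, 0.12 and 0.0764), and of 1.20 (adjusted p = 0.000299) against ATP. The time difference was 1.08 for ENPP1+ATP (adjusted p = 0.0184), lost in 4 of 8 fits with 1 library left out, and 1.52 for AMP (adjusted p = 0.00148).

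The remaining members had few reads counted in this line, so their read counts are given. Tagln, the actin cross-linker transgelin, had 26 to 162 reads over the 2 libraries of a group. Its level at 48 h was 0.994 and 0.999 CPM in vehicle, 1.63 and 2.12 after AMP, 1.68 and 1.14 after ENPP1+ATP, and 0.422 and 0.732 after ATP. The call for AMP against vehicle (log2 fold change 0.91, adjusted p = 0.0424) was lost with no filter on low counts (adjusted p = 0.0758) and with the replicate number as a block (adjusted p = 0.052). It was also lost without AMP replicate 2 (log2 fold change 0.72) and without either vehicle library (0.92 and 0.91). ENPP1+ATP exceeded ATP by 1.63 at 24 h (adjusted p = 0.00305; 0.0685 without ENPP1+ATP replicate 2) and by 1.30 at 48 h (adjusted p = 0.00888; 0.161 without ATP replicate 1 and 0.0956 without ENPP1+ATP replicate 1). Of the 1988 exon bases of Tagln, 1349 lie opposite exons of Pcsk7 and Gm48529, so reads of these genes cannot be told apart here unless strand was used.

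Cnn1, the calponin of differentiated smooth muscle, had 30 reads in the 2 ENPP1+ATP libraries at 48 h (0.413 and 0.325 CPM) against 1 in vehicle (0 and 0.0208 CPM), 3 in ATP and 0 in AMP. The ratio of pooled reads to vehicle was 38.1, with an exact 95% counting interval of 6.34 to 1556, and the edgeR call (adjusted p = 0.00438) was lost without vehicle replicate 1 (log2 fold change 3.99, adjusted p = 0.1). The ratio to ATP was 11.1 (3.45 to 56.8). With a floor of 3 counts over the group, AMP was 10.7-fold lower than ENPP1+ATP at 48 h. The exact 95% counting interval of that ratio ended at 0.123, which is a weaker limit. The edgeR test between these media gave an adjusted p of 0.0844, and 0.0395 with no filter on low counts.

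Myh11, the heavy chain of smooth muscle myosin, had 8 reads after ENPP1+ATP and 10 after ATP at 48 h against 55 in vehicle, a pooled ratio of 0.185 (0.0761 to 0.391) and 0.208 (0.0947 to 0.413). Its edgeR calls were lost without ENPP1+ATP replicate 2 (log2 fold change -1.73, adjusted p = 0.0763, from -2.43 and 0.00706) and, for ATP (-2.27, adjusted p = 0.043), without any 1 of the 4 libraries (adjusted p 0.0861 to 0.357). Lmod1, which nucleates actin filaments in smooth muscle, was between 0.158 and 0.757 CPM in all libraries and was called in no comparison with all libraries, but for ENPP1+ATP against ATP at 48 h without ENPP1+ATP replicate 2 (log2 fold change 1.59, adjusted p = 0.0374). Actg2, the enteric smooth muscle actin, had 0 to 6 reads per library. Cnn1, Myh11, Lmod1 and Actg2 thus stayed under 1 CPM in every CF library, whereas the summed smooth muscle or pericyte markers outside this set were higher after ENPP1+ATP and AMP at 48 h, as given above.

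**Figure D2:**
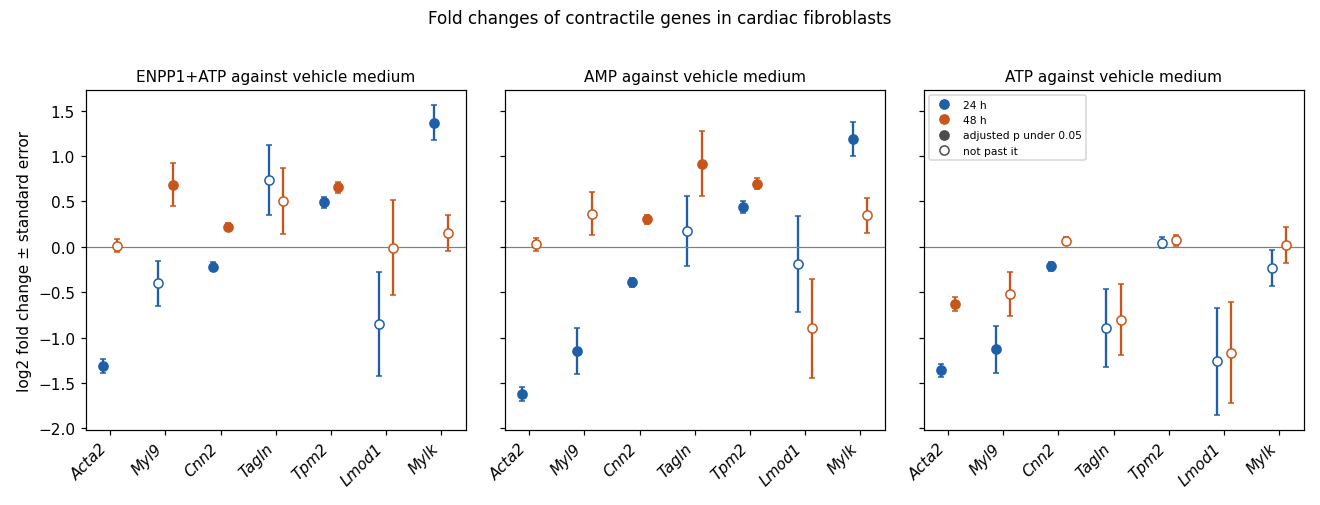
Log2 fold change against vehicle ± SE (y axis) of 7 contractile genes in CFs after ENPP1+ATP, AMP and ATP MCndM (panels) at 24 h and 48 h, filled where the adjusted p was under 0.05. Cnn1, Myh11 and Actg2 are not drawn because of their low counts; Acta2 lies at -1.31 to -1.62 at 24 h in all 3 panels and near 0 at 48 h in the first 2, whereas Tpm2 lies above 0 at both times there.

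Set against all genes, the 9 tested members were called about as often as other genes in ENPP1+ATP MCndM, so their number is no result by itself. At 24 h, 2 members were higher (Tpm2, Mylk) and 2 lower (Acta2, Cnn2) after ENPP1+ATP, where 49.1% of all genes were called, with a median log2 fold change of 0.25 over the members. After AMP 2 were higher and 3 lower (Acta2, Cnn2, Myl9), with 52.8% of all genes called, and after ATP 0 were higher and 3 lower, with 11.1%. At 48 h the counts were 4 higher (Cnn1, Cnn2, Myl9, Tpm2) and 1 lower (Myh11) after ENPP1+ATP against 45.2% of all genes, 3 higher (Tagln, Cnn2, Tpm2) and 0 lower after AMP against 44%, and 0 higher and 2 lower (Acta2, Myh11) after ATP against 7.83%. These comparisons share the vehicle libraries. ENPP1 alone gave 0 called members and 0% of all genes by edgeR at both times, with 249 genes at 24 h and 743 at 48 h at an unadjusted p under 0.05. With no filter on low counts, 26 genes were called at 24 h, Acta2 among them, and 180 at 48 h.

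Directly against ATP, ENPP1+ATP had 4 members higher at 24 h (Tagln, Myl9, Tpm2, Mylk) where 43.9% of all genes were called, and 6 higher at 48 h (Acta2, Tagln, Cnn1, Cnn2, Myl9, Tpm2) where 39.5% were, with 0 lower at either time. The median log2 fold change over the members was 0.73 and 0.64. Of the 24 h calls, that of Myl9 (0.73, adjusted p = 0.0336) was lost in 3 of 4 fits without 1 library, and of the 48 h calls so was that of Cnn2 (0.15, adjusted p = 0.0114). The 48 h call of Cnn1 (3.33, adjusted p = 0.0248) was lost without ATP replicate 1 (adjusted p = 0.3) or ENPP1+ATP replicate 1 (adjusted p = 0.0864), with DESeq2 (adjusted p = 0.0501) and with no filter on low counts (adjusted p = 0.0677). AMP against ENPP1+ATP had 2 lower members at 24 h (Acta2 and Cnn2) against 6.25% of all genes and 0 at 48 h against 0.162%. The Cnn2 call (-0.17, adjusted p = 0.0303) was lost without AMP replicate 1 (adjusted p = 0.139), ENPP1+ATP replicate 1 (0.058) or ENPP1+ATP replicate 2 (0.213), as that of Acta2 was in 3 of 4 such fits. In vehicle, 1 member (Cnn2) differed between the times against 4.88% of genes. The difference of the medium effect between the times passed for 5 members after ENPP1+ATP (3 more positive, 2 more negative at 48 h) against 30% of all genes, and for 5 after AMP (4 and 1) against 31.7%.

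Other genes of the contractile apparatus moved as a mixture too. Of 45 partners of the filament, focal adhesion and Z-line, 20 were lower and 10 higher after ENPP1+ATP at 24 h (median log2 fold change -0.15), and 5 lower and 23 higher at 48 h (0.20), against 49.1% and 45.2% of all genes called. Itga8, an integrin chain of smooth muscle, fell from a mean of 9.12 to 1.54 CPM at 24 h (log2 fold change -2.57 ± 0.197, adjusted p = 7.6e-11) and was still lower at 48 h (-1.09, adjusted p = 1.62e-05). Synm, the intermediate filament protein synemin, rose from 4.83 to 14.2 CPM at 24 h (1.58, adjusted p = 3.89e-10) and from 6.45 to 30.9 CPM at 48 h (2.26, adjusted p = 3.7e-13). Fhl2, a LIM protein of the actin cytoskeleton, fell from 51.6 to 23.1 CPM at 24 h (-1.16, adjusted p = 2.52e-06), and Csrp2, a LIM protein of smooth muscle, was lower at 48 h (-1.32, adjusted p = 6.34e-12). After ATP 13 partners were lower and 0 higher at 24 h, against 11.1% of all genes.

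Among 41 regulators of the program and genes of TGF-β signalling, 24 were lower and 7 higher after ENPP1+ATP at 24 h (median -0.21), and 15 lower and 15 higher at 48 h (0.05), with the same 49.1% and 45.2% of all genes called. Klf5, a zinc finger factor of smooth muscle remodelling, was higher at 24 h (1.69, adjusted p = 1.15e-09). Klf4, a repressor of the contractile program in smooth muscle, rose from 49.5 to 191 CPM at 48 h (1.95, adjusted p = 1.08e-13). Smad6, an inhibitory SMAD, was lower at both times (-1.48, adjusted p = 4.67e-12; -1.59, adjusted p = 1.04e-12). Thbs1, which encodes thrombospondin-1, an activator of latent TGF-β, fell from 502.1 to 223 CPM at 24 h (-1.17, adjusted p = 8.24e-15), and Ankrd1, a target of YAP and TEAD, rose from 193 to 544 CPM at 48 h (1.5, adjusted p = 3.1e-16).

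The 26 genes of myofibroblast matrix and activation were mostly lower. After ENPP1+ATP 20 were lower and 2 higher at 24 h (median log2 fold change -0.76), and 21 lower and 2 higher at 48 h (-0.79), beside 49.1% and 45.2% of all genes. Col3a1, a fibrillar collagen, fell from 1842 to 586 CPM at 24 h (-1.65, adjusted p = 3.2e-15) and was also lower at 48 h (-1.43). Col11a1 fell from 411 to 97.9 CPM (-2.07, adjusted p = 3.95e-13), and Lox, the collagen cross-linking enzyme, from 591 to 194 CPM (-1.61, adjusted p = 8.21e-14). After ATP 17 of the 26 were lower and 1 higher at 24 h, beside 11.1% of all genes. For reference, Cdkn1a, the p53 target p21, had a log2 fold change of 1.97 at 24 h after ENPP1+ATP (479 against 123 CPM) and Mki67, a marker of dividing cells, also of 1.97 (1576 against 403 CPM).

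Across the 10 CF group means, the genes whose log2 CPM most resembled that of Acta2 among 10878 ranked were Sh3pxd2a (Pearson r = 0.982), Aldh9a1 (0.979), Gm45133 (0.971), Neo1 (0.968) and Gprc5b (0.965). Among the members, Myl9 was closest to Acta2 (0.896), followed by Lmod1 (0.695), Cnn2 (0.665) and Tagln (0.608). Tpm2 (0.00484) had no relation, and Myh11 (-0.221), Cnn1 (-0.258) and Mylk (-0.527) were negative. These values are descriptions over group means that share libraries and depth.

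In NRVM cultures the members had another profile. The fibroblast markers measured in these cultures (9 of 10 in the table, all but Mfap5 over 1 CPM) summed to 23121 to 24496 CPM in vehicle, 7836 to 8216 after ENPP1+ATP, 11016 to 11711 after AMP and 10065 to 11326 after ATP, and the cardiomyocyte markers to 25451 to 26249 CPM in vehicle, 23611 to 24565 after ENPP1+ATP, 26646 to 28430 after AMP and 15444 to 16556 after ATP. The cultures thus held RNA of fibroblasts as well as of myocytes, and the part of these marker sums in the results was not tested. Notch3, a gene of smooth muscle and pericytes, was clearly higher in AMP replicate 3 (67.4 CPM) and ATP replicate 2 (55.6) than in the rest of their groups (30.8 to 37.3). The highest library of the other groups, ENPP1 replicate 2 (41.7), vehicle replicate 2 (32.1) and ENPP1+ATP replicate 2 (31.0), stood less far apart. A fit without these 5 libraries, an alternative chosen after the data were seen, is given beside members or beside the counts of called members.

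Acta2 was lower after each nucleotide treatment in NRVMs as well. Its level was 626, 665 and 567 CPM in vehicle, 402, 504 and 403 after ENPP1+ATP, 445, 442 and 524 after AMP, 387, 467 and 419 after ATP, and 596, 651 and 587 after ENPP1 alone. The libraries of the 3 nucleotide media did not overlap those of vehicle. The log2 fold change was -0.51 ± 0.111 for ENPP1+ATP (adjusted p = 0.00254), -0.40 for AMP (adjusted p = 0.0102) and -0.55 for ATP (adjusted p = 0.00142), and without the 5 libraries it was -0.57, -0.43 and -0.57.

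Tagln and Tpm2 instead rose after ATP alone. Tagln was at 372, 401 and 333 CPM in vehicle, 632, 743 and 749 after ATP, 367, 443 and 367 after ENPP1+ATP, and 392, 404 and 472 after AMP. Only the ATP libraries lay clear of vehicle, at a log2 fold change of 0.94 ± 0.114 (adjusted p = 2.84e-05), and ENPP1+ATP was below ATP (-0.85, adjusted p = 0.000201). For Tpm2 the vehicle libraries were at 273, 278 and 259 CPM and the ATP libraries at 317, 375 and 332 (0.34, adjusted p = 4.23e-06), against 265, 292 and 259 after ENPP1+ATP, which was lower than ATP (-0.33, adjusted p = 2.61e-05). Cnn2 rose from 53.6, 58.2 and 55.5 CPM to 70.8, 71.4 and 78.1 after ATP (0.40, adjusted p = 4.41e-07) and to 62.3, 69.0 and 58.9 after ENPP1+ATP (0.19, adjusted p = 0.0106), the latter lost without ENPP1+ATP replicate 2 (adjusted p = 0.134), without vehicle replicate 1 (adjusted p = 0.0707) or without the 5 libraries (0.15, adjusted p = 0.0791). In the same ATP libraries Mcam, a gene of smooth muscle, pericytes and endothelium, was at 343 to 361 CPM against 219.8 to 236 in vehicle. The summed endothelial markers were at 73.7 to 97.0 against 47.5 to 55.4, and the smooth muscle or pericyte markers without Pln, which myocytes also express, at 612 to 656 against 588 to 605. This last sum includes Mcam and rose by less than Mcam, so its other markers together were lower. The part of all these markers in the rises of Tagln, Tpm2 and Cnn2 was not tested.

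Cnn1 and Mylk were lower after ENPP1+ATP. Cnn1 was at 41.7, 39.1 and 37.2 CPM in vehicle, 18.7, 31.4 and 18.4 after ENPP1+ATP, 23.8, 21.7 and 32.5 after AMP, and 26.1, 34.7 and 28.3 after ATP. Its log2 fold change was -0.78 ± 0.219 for ENPP1+ATP (adjusted p = 0.0106) and -0.60 for AMP (adjusted p = 0.0343), the second lost in 5 of 6 fits with 1 library left out (adjusted p 0.0551 to 0.116). Mylk was at 32.6, 30.4 and 33.5 CPM in vehicle and 18.8, 21.7 and 18.5 after ENPP1+ATP, without overlap. Its call (-0.71 ± 0.264, adjusted p = 0.0415) was lost in each of 6 fits with 1 library left out (adjusted p 0.0617 to 0.106). Without AMP replicate 3, Mylk was also lower after AMP (-0.97, adjusted p = 0.00418). That library also stood apart in endothelial markers, which summed to 111 CPM against 46.9 and 54.6 in the other AMP libraries. Its Rgs5 level was 5.82 CPM against 0.790 and 0.727. Smooth muscle or pericyte markers without Pln summed to 588 to 605 CPM in vehicle, 513 to 533 after ENPP1+ATP and 503 to 584 after AMP. The part of these markers in the lower levels of Acta2, Cnn1 and Mylk was not tested. Myl9 fell slightly after ENPP1+ATP, from 636, 617 and 634 CPM to 551, 582 and 542 (-0.17, adjusted p = 0.000284), and after ATP to 566, 595 and 585 (-0.11, adjusted p = 0.0139; 0.0688 without ATP replicate 1), but was at 679, 681 and 627 after AMP, above ENPP1+ATP (0.25, adjusted p = 1.35e-05).

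Myh11, Actg2 and Lmod1 varied widely between libraries of a group. Myh11 was at 24.8, 22.0 and 21.8 CPM in vehicle, 16.2, 41.4 and 19.1 after ENPP1+ATP, and 28.3, 60.8 and 31.9 after ATP, where replicate 2 of both treated groups lies apart. In ENPP1+ATP replicate 2, Notch3 was below that of vehicle replicate 2 (31.0 against 32.1 CPM), whereas Rgs5 was above it (1.47 against 0.551 CPM). Actg2 was at 19.0, 15.2 and 13.9 CPM in vehicle, 10.4, 30.1 and 11.6 after ENPP1+ATP, and 8.09, 9.64 and 15.3 after AMP, and Lmod1 was between 6.12 and 18.7 CPM in all libraries. None of these 3 genes was called against vehicle with all libraries. Without the 5 libraries Actg2 (log2 fold change -0.59, adjusted p = 0.0015) and Myh11 (-0.40, adjusted p = 0.00232) were lower after ENPP1+ATP, where all libraries gave 0.12 and 0.17. As the treated libraries left out were also the highest of their groups in Actg2 and Myh11, leaving them out lowers the treated means of these genes.

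**Figure D3:**
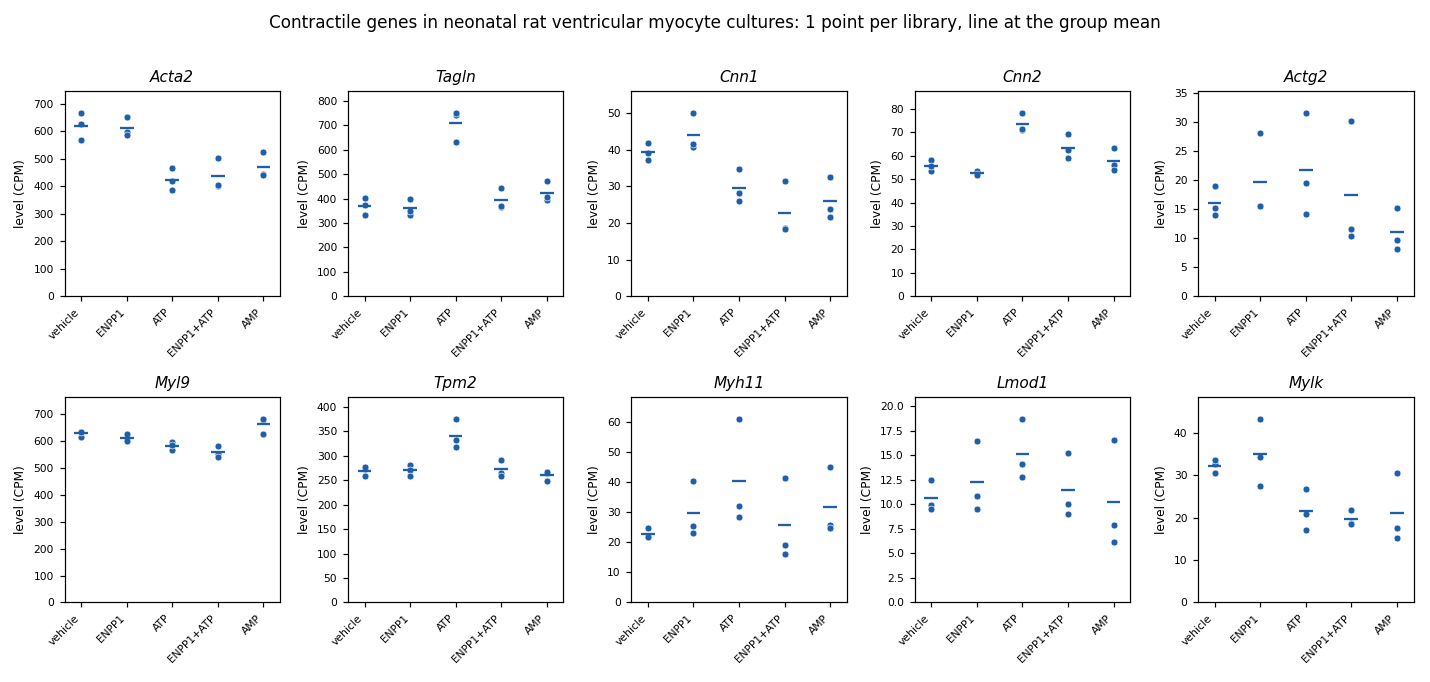
Level of each of the 10 contractile genes in CPM (y axis, one scale per panel, starting at 0) in the 3 NRVM libraries of each of the 5 treatments (x axis), with lines at the means. Tagln lies at 632 to 749 CPM after ATP against 333 to 401 CPM in vehicle, and Myh11 and Actg2 show single high libraries in the treated groups.

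In NRVMs 1 member was higher (Cnn2) and 4 lower (Acta2, Cnn1, Myl9, Mylk) after ENPP1+ATP against 56% of all genes called, 0 higher and 2 lower (Acta2, Cnn1) after AMP against 57.2%, and 3 higher (Tagln, Cnn2, Tpm2) and 2 lower (Acta2, Myl9) after ATP against 59.9%. The median log2 fold changes over the 10 members were 0.05, -0.06 and 0.37. ENPP1+ATP against ATP had 3 lower members (Tagln, Cnn2, Tpm2) and 27.5% of all genes, the call of Cnn2 (-0.21, adjusted p = 0.00675) being lost without ATP replicate 3 (adjusted p = 0.0744) or ENPP1+ATP replicate 3 (adjusted p = 0.0756). AMP against ENPP1+ATP had 1 higher (Myl9) and 9.66%, and ENPP1 alone 0 members and 0% by edgeR, with 693 genes at an unadjusted p under 0.05. With no filter on low counts, 14 genes were called after ENPP1 alone. Without the 5 libraries the called members numbered 6 after ENPP1+ATP, 6 after AMP, 9 after ATP, 0 after ENPP1, 7 for ENPP1+ATP against ATP and 2 for AMP against ENPP1+ATP. In the same fit, the calls over all genes in the nucleotide comparisons were fewer than with all libraries, at 6619 against 7538 after ENPP1+ATP, 6934 against 7703 after AMP, 7217 against 8067 after ATP, 2823 against 3708 for ENPP1+ATP against ATP and 990 against 1300 for AMP against ENPP1+ATP, and were 0 in both fits after ENPP1. The members then called in addition after AMP were Tagln (0.17), Actg2 (-0.90), Lmod1 (-0.48) and Mylk (-1.02), and after ATP they were Cnn1 (-0.54), Myh11 (0.37), Lmod1 (0.46) and Mylk (-0.81). For ENPP1+ATP against ATP they were Cnn1 (-0.56), Actg2 (-0.61), Myh11 (-0.77) and Lmod1 (-0.50), and for AMP against ENPP1+ATP Myh11 (0.50). The 5 libraries were picked by a gene of smooth muscle, so leaving them out can itself narrow the spread of the members within a group. These added calls are therefore a description only and no support for an effect. In the lists, 25 of 42 partners were lower and 10 higher after ENPP1+ATP (median -0.26), as were 24 and 8 of 41 regulators, and 24 and 1 of 26 matrix and activation genes (-0.89).

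In the single-cell libraries the deleted gene was examined first. In the fibroblast-like class Enpp1 had 459 counts in ENPP1CKO and 1231 in control, or 28.5 and 126 CPM (counts per 1000000 counts summed over the cells of the class), a log2 ratio of -2.15 (exact 95% counting interval -2.31 to -1.99). Which exons are floxed, and whether they lie in the part of the transcript that was counted, is not given in the sources used here. Fibroblast-like cells were 4 clusters of 3665 ENPP1CKO and 1785 control cells (median 4023 and 5051 counts), each with 9 of 10 fibroblast markers. Cluster 10, of 165 and 83 cells (median 2082 and 4033 counts), had 11 of 12 markers of smooth muscle or pericytes and is called smooth muscle or pericyte-like. With 1 library per genotype there is no test, and intervals cover counting error only. The 2 libraries shared 68 barcodes, and without the cells of these barcodes, a check chosen after the data were seen, the direction of each member named below was the same.

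In fibroblast-like cells nearly the whole set was lower in ENPP1CKO than in control. Acta2 was at 256 CPM in ENPP1CKO and 1059 in control (4115 and 10315 counts), a log2 ratio of -2.05 (-2.10 to -2.0). Tagln was at 209 and 432 (-1.05, -1.12 to -0.98), Myl9 at 111 and 271 (-1.30, -1.38 to -1.21) and Tpm2 at 189 and 350 (-0.89, -0.96 to -0.81). These 4 are the members most used in stress fibres of myofibroblasts. The largest ratios were those of Actg2 and Cnn1, from fewer counts. Actg2 had 56 and 443 counts (3.48 and 45.5 CPM, log2 ratio -3.71, -4.14 to -3.31) and Cnn1 had 40 and 201 (2.48 and 20.6 CPM, -3.05, -3.58 to -2.56).

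Lmod1 was at 1.43 and 5.85 CPM (-2.04, -2.80 to -1.31), Mylk at 7.27 and 14.9 (-1.04, -1.40 to -0.67) and Cnn2, the broadly used calponin, at 98.3 and 159.7 (-0.70, -0.80 to -0.60). Myh11 had 8 and 6 counts, too few for a ratio (-0.31, -2.03 to 1.5). Thus 9 of the 9 members with at least 20 counts were below 1 in ratio, and 7 were at least 2-fold lower (4 with equal cluster shares, below), where 2.63% of the 12615 genes with as many counts were 2-fold lower and 2.47% 2-fold higher, and the median of all genes was 0.02 on the log2 scale. Of 42 partners 30 were below 1 in ratio, 1 was at least 2-fold lower (Ldb3) and 2 were higher (Actc1, Itga8), with a median of -0.17. Of 39 regulators 17 were below 1, with 1 at least 2-fold lower and 0 higher (median 0.04). Of 28 matrix and activation genes 18 were below 1, with 2 at least 2-fold lower and 1 higher (-0.16). The lists were not tested against the members. Within the fibroblast-like class the summed markers of smooth muscle or pericytes were at 292 CPM in ENPP1CKO and 429 in control, and those of macrophages at 345 and 587. Those of endothelium were at 129 and 51.7, those of fibroblasts at 44652 and 40732, and those of cardiomyocytes, which include Actc1, at 32.5 and 15.2. The part of these markers in the lower member levels was not tested.

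**Figure D4:**
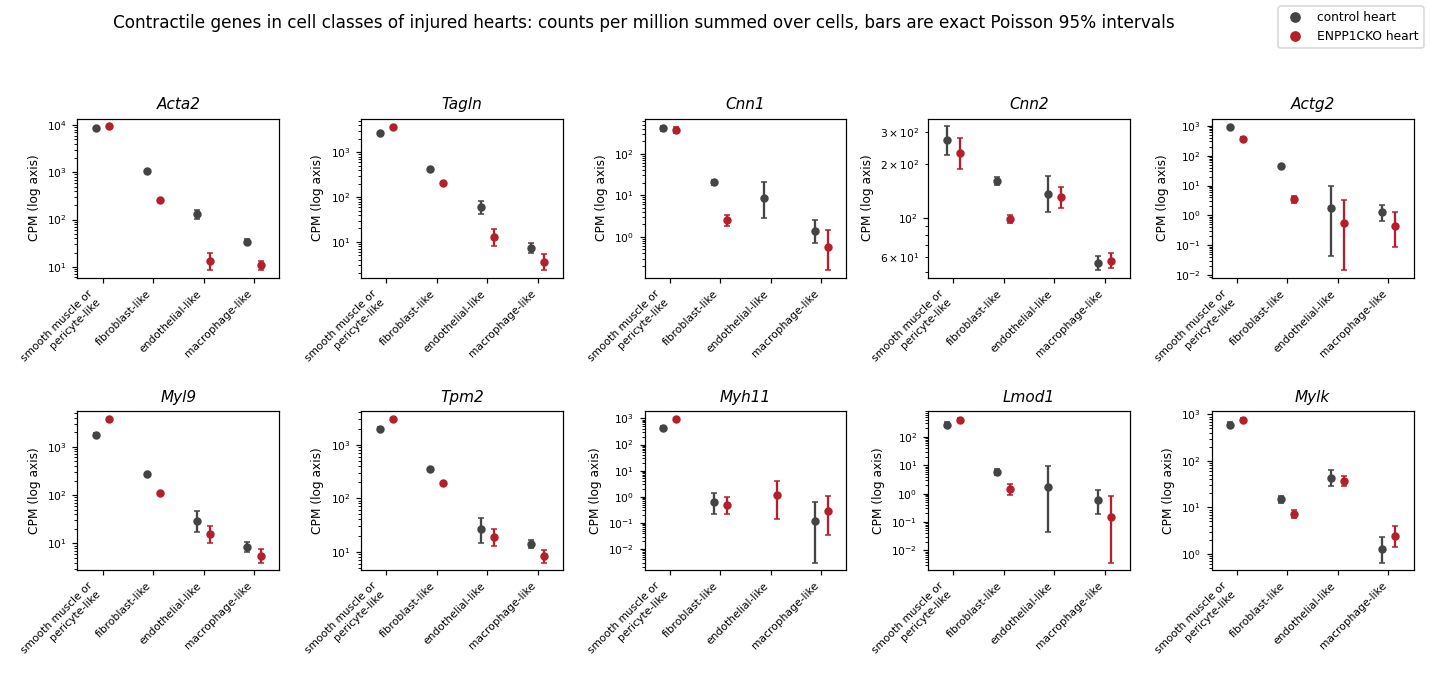
Level of each contractile gene in CPM of the class (y axis, log scale) in 4 classes of the ENPP1CKO and control libraries, with exact 95% Poisson intervals. Points at 0 counts are not drawn (Cnn1 and Lmod1 in endothelial-like cells of ENPP1CKO, Myh11 in those of control); in fibroblast-like cells Acta2 lies at 256 against 1059 CPM and in smooth muscle or pericyte-like cells at 9407 against 8671.

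The share of fibroblast-like cells with a count was lower too. For Acta2 it was 27.4% in ENPP1CKO and 57.0% in control, and 11.5% and 28.0% after each cell was thinned to 1000 counts. For Tagln it was 29.5% and 45.2% (11.6% and 19.8% thinned), for Tpm2 44.0% and 56.9% (14.2% and 22.4%), and for Actg2 0.600% and 5.83%. Acta2 counts were held by few cells, since the 10% of fibroblast-like cells with the most held 82.1% of them in ENPP1CKO and 74.1% in control. In thinned cells, 5 or more members were found together in 0.169% of the fibroblast-like class in ENPP1CKO and 2.07% in control, and no member in 61.0% and 45.1%. Tagln was found in 29.7% and 40.2% of the cells with Acta2 and in 9.22% and 11.8% of those without.

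Free RNA can give counts in cells that do not express a gene, so macrophage-like cells (2036 and 2522 cells, median 3250.5 and 3213.5 counts) serve as the background. There Acta2 was found in 3.68% and 10.7% of cells (1.42% and 3.66% thinned), at 10.8 and 34.1 CPM, and Tagln in 1.23% and 2.42%, at 3.60 and 7.31 CPM. The shares in fibroblast-like cells were above these in both libraries. The background of Acta2 was itself lower in ENPP1CKO (log2 ratio -1.66). The macrophage-like class was not the same mix in both libraries, since cluster 8 held 52 ENPP1CKO and 820 control cells, and within its main cluster 6 (1960 and 1603 cells) the ratio was -1.34 (-1.75 to -0.94). The part of this background in the shares of fibroblast-like cells was not tested.

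The fibroblast-like clusters did not take the same share of cells in the 2 libraries. Cluster 2, led by Sfrp2 and Postn, had 1243 ENPP1CKO and 1188 control cells, cluster 0, led by Cilp and Thbs4, had 1558 and 279, cluster 1, led by Clec3b, had 751 and 233, and cluster 11, led by interferon genes, had 113 and 85. With the clusters given the same shares in both libraries, the log2 ratio was -1.54 for Acta2, -0.88 for Tagln, -2.19 for Cnn1, -3.00 for Actg2, -0.82 for Myl9, -0.59 for Tpm2, -1.40 for Lmod1, -0.53 for Mylk and -0.52 for Cnn2. Each was nearer to 0 than over the whole class and kept its sign, and 4 of these 9 members (Acta2, Cnn1, Actg2, Lmod1) rather than 7 were then at least 2-fold lower.

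Within cluster 2, where the cells were nearly equal in number, Acta2 was at 455 and 1369 CPM (-1.59, -1.66 to -1.52), Tagln at a log2 ratio of -1.19 (-1.28 to -1.09), Actg2 at -3.14 (-3.66 to -2.65), Cnn1 at -2.40, Tpm2 at -0.91 and Myl9 at -0.88. Cluster 0 had Acta2 at 196 and 539 CPM (-1.46, -1.58 to -1.34) and Tagln at -0.52 (-0.64 to -0.39), but Tpm2 at -0.04 (-0.21 to 0.14). In cluster 1 the ratio of Acta2 was smaller (-0.51, -0.84 to -0.18) and that of Tagln was within its interval of 0 (-0.23, -0.76 to 0.32). The lower Acta2 level of ENPP1CKO was thus seen in each of these 3 clusters and in cluster 11 (-1.97).

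Smooth muscle or pericyte-like cells had a different pattern from fibroblast-like cells. Acta2 was at 9407 and 8671 CPM (log2 ratio 0.12, 0.05 to 0.18; -0.06 in cells thinned to 1000 counts), Tagln at 3760 and 2741 (0.46, 0.35 to 0.57) and Tpm2 at 2969 and 1988 (0.58, 0.45 to 0.71). Higher in ENPP1CKO by about 2-fold were Myl9, at 3729 and 1757 (1.09, 0.96 to 1.21), and Myh11, at 930 and 434 (1.10, 0.84 to 1.36). Neither reached 2-fold with a stricter cell filter (0.92 and 0.97) or in cells thinned to 1000 counts (0.93 and 0.72), and with the members kept among the clustering genes 1 of them did (0.99 and 1.01). These are 2 members at least 2-fold higher and 1 lower, against 5.51% of 5122 genes higher and 5.21% lower in this class. Actg2 was the lower one, at 376 and 909 (-1.27, -1.55 to -1.01), whereas Cnn1 (376 and 402, -0.10, -0.42 to 0.22) and Cnn2 (228 and 270, -0.25, -0.65 to 0.15) had intervals that held 0. Mylk was at 751 and 604 (0.31, 0.07 to 0.56) and Lmod1 at 398 and 273 (0.54, 0.20 to 0.90).

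The smooth muscle or pericyte-like cells also differed in other ways between the libraries. The summed fibroblast markers in them were at 5584 CPM in ENPP1CKO and 9375 in control, and the summed endothelial markers at 2260 and 1101. Those of smooth muscle or pericytes were at 9857 and 7658, and those of cardiomyocytes at 516 and 141. Enpp1 had 1 and 9 counts there. The part of these differences, and of the median depth, in the values of Myl9 and Myh11 was not tested. This class of few cells held 46.3% of all Acta2 counts of the ENPP1CKO library and 21.2% of those of control, and fibroblast-like cells held 45.3% and 61.3%.

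In other classes the Acta2 level is given beside the macrophage-like background of 10.8 and 34.1 CPM, which was itself lower in ENPP1CKO. It was at 13.3 and 129 CPM in endothelial-like cells (933 and 193 cells), 408 and 645 in mesothelial-like cells (29 and 117 cells), and 962 and 1946 in an unnamed cluster of dividing cells, where Actg2 was at 8.25 and 90.5. The endothelial-like level in ENPP1CKO was thus near that background, and the summed fibroblast markers in that class were at 1273 and 2185 CPM. Mylk, whose long isoform is used by endothelium, was at 37.5 and 43.7 CPM in endothelial-like cells.

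**Figure D5:**
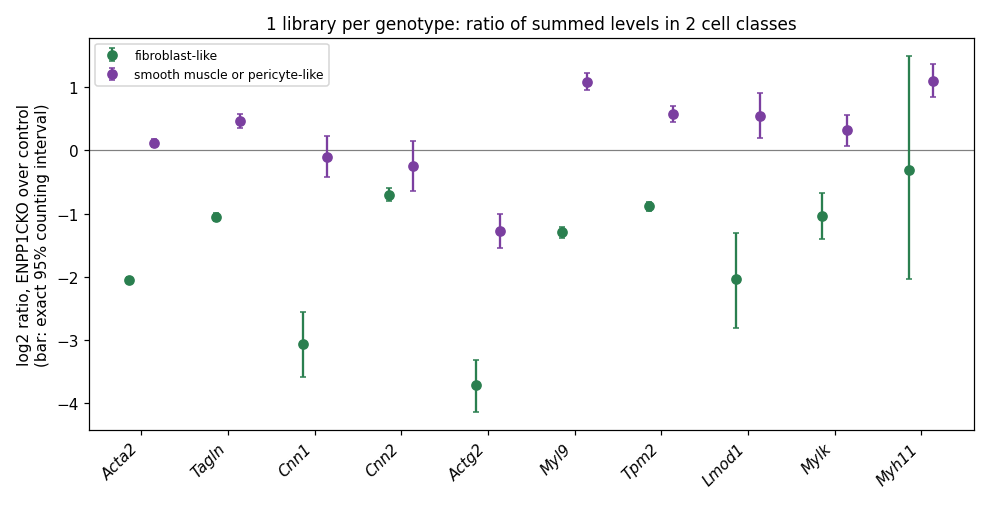
Log2 ratio of ENPP1CKO to control CPM (y axis) for each contractile gene (x axis) in fibroblast-like and in smooth muscle or pericyte-like cells, with exact 95% counting intervals. In fibroblast-like cells 9 genes lie below 0 with their intervals and Myh11 has an interval over 0, while in smooth muscle or pericyte-like cells Actg2 lies at -1.27 and Myl9 and Myh11 at 1.09 and 1.10.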

How the data were processed

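Per the labels, RNA of immortalized CFs (20 libraries) and NRVM cultures (15 libraries) was sequenced in bulk, and nonmyocytes of injured hearts as single cells (2 libraries). For each bulk library the authors deposited whole-number read counts per gene, and for the single cells counts of molecules per gene and barcode, none of them normalized. The submitters' processing notes name STAR 2.5.3a, Cell Ranger and the builds mm10 and rn6, while the counter, annotation and strandedness are not given in the sources used here. All deposited sample columns were used, and 0 columns belonged to other samples. The organism field of the NRVM labels names mouse, although the cells are from rat, and gene symbols were used as listed.

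The members and the gene lists were chosen with earlier results of these data known. Bulk counts were tested in R 4.3.3 with the quasi-likelihood test of edgeR 4.0.16 (filterByExpr, TMM factors, robust estimation), 1 mean per medium and time, separately for CFs and NRVMs. Adjustment of p-values followed Benjamini and Hochberg across every gene tested in a comparison, with a threshold of 0.05. Alternatives were DESeq2 1.42.0, its size factors in edgeR, no filter on low counts, the replicate number as a block, and leaving out each library in turn, where the lone library of an arm is assumed to vary as the other groups do. Genes named beside the members were up to 3 per list with the largest change past the threshold and a mean log2 CPM of at least 2 after ENPP1+ATP at 24 h or 48 h, the 5 genes most like Acta2, the reference genes Cdkn1a, Mki67 and Enpp1, and cell class markers. On simulated counts for CFs after ENPP1+ATP at 24 h, among 17292 genes, 60.6% of 1.5-fold and 67.7% of 2-fold changes were recovered, and for NRVMs, among 13267 genes, 75.8% and 86.7%.

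Single cells were analysed with scanpy 1.11.5 after removal of 151 predicted doublets in ENPP1CKO and 69 in control, which left 7255 and 5240 cells (median 3367 and 3701 counts), and the members were kept out of the genes used for clustering. Classes were named from marker lists, so names were rebuilt here. Counts were summed per class and library, and ratios have exact 95% intervals. The numbers of genes below 1 in ratio or past 2-fold took only genes with at least 20 counts summed over both libraries. Intervals and floors cover counting error only.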

Additional observations from a re-analysis of the deposited data

Results flagged for a closer look

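The effect of a medium on a member differed between 24 h and 48 h by a test of that difference (edgeR) for 5 genes after ENPP1+ATP. On the log2 scale the effect at 48 h minus that at 24 h was 1.32 for Acta2, 0.44 for Cnn2, 1.08 for Myl9, -2.69 for Myh11 and -1.22 for Mylk, with 2 libraries per medium and time, and the difference of Myh11 was lost in 5 and that of Myl9 in 4 of 8 fits with 1 library left out. After AMP the same difference was 1.65 for Acta2, 0.69 for Cnn2, 1.52 for Myl9, 0.26 for Tpm2 and -0.84 for Mylk, that of Tpm2 being lost in 5 and that of Mylk in 4 of 8 such fits. Both sets rest on the same vehicle libraries.

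The ratio of ENPP1CKO to control had the opposite sign in smooth muscle or pericyte-like and fibroblast-like cells for 6 genes, a difference that was not tested because each genotype has 1 library. In smooth muscle or pericyte-like cells the log2 ratio was 0.12 for Acta2, 0.46 for Tagln, 1.09 for Myl9, 0.58 for Tpm2, 0.54 for Lmod1 and 0.31 for Mylk, where in fibroblast-like cells it was -2.05, -1.05, -1.30, -0.89, -2.04 and -1.04. For Acta2 the positive ratio turned to -0.0564 once each cell was thinned to 1000 counts, a sign no longer opposite to that of fibroblast-like cells.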

How the results depend on the processing

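The calls of Acta2 and Tpm2 against vehicle in CFs, and of Mylk at 24 h and Cnn2 after ENPP1+ATP and AMP, were made under each alternative run. The number of members called changed by over 1.5 times with no filter on low counts (1 for CF ENPP1 at 24 h, 1 for CF AMP against ENPP1+ATP at 48 h, 2 for CF vehicle over time, 1 for NRVM AMP), with DESeq2 (1 for CF ATP at 48 h, where the adjusted p of Myh11 was NA), and without the 5 NRVM libraries highest in Notch3 in their groups (6 for AMP, 9 for ATP, 7 for ENPP1+ATP against ATP, 2 for AMP against ENPP1+ATP, while calls over all genes went from 7703 to 6934, 8067 to 7217, 3708 to 2823 and 1300 to 990), where Actg2 (-0.59) and Myh11 (-0.40) turned direction after ENPP1+ATP. Members at least 2-fold higher in smooth muscle or pericyte-like cells numbered 0 with a stricter cell filter, 1 with the members kept in the clustering genes and 0 after thinning, where the Acta2 ratio turned to -0.0564. Calls over all genes for CF AMP against ENPP1+ATP at 48 h went from 29 to 158 with DESeq2 and to 322 with no filter on low counts. In CFs, those for AMP against ENPP1+ATP, ATP against vehicle and vehicle over time also moved by over 1.5 times in some fits with 1 library left out. The causes of these changes were not tested. The 5 NRVM libraries were picked after the data were seen, by a gene of smooth muscle. Member calls gained without them are therefore no support for an effect.

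With 1 library left out in turn, the members called in CFs ranged as follows at 24 h: ENPP1+ATP 4 to 4, AMP 5 to 5, ATP 1 to 3, ENPP1 0 to 0, ENPP1+ATP against ATP 2 to 4, and AMP against ENPP1+ATP 0 to 2. At 48 h they were 3 to 4, 2 to 3, 1 to 1, 0 to 0, 3 to 6 and 0 to 0 in the same order, 0 to 1 for vehicle over time, and 3 to 5 for the time difference of ENPP1+ATP and of AMP. In NRVMs they were 3 to 4 for ENPP1+ATP, 1 to 4 for AMP, 4 to 6 for ATP, 0 to 0 for ENPP1, 2 to 4 for ENPP1+ATP against ATP and 1 to 2 for AMP against ENPP1+ATP. Calls gained without 1 library, beside those of Lmod1 in CFs and Mylk after AMP in NRVMs, were Myl9 for CF AMP against ENPP1+ATP at 24 h (-1.16, adjusted p = 0.0429 without AMP replicate 2) and in NRVMs Myl9 after AMP (0.12, adjusted p = 0.016) and Cnn2 for AMP against ENPP1+ATP (-0.21, adjusted p = 0.0355), both without AMP replicate 3, Mylk after ATP (-0.76, adjusted p = 0.0464 without ATP replicate 2) and Cnn1 for ENPP1+ATP against ATP (-0.68, adjusted p = 0.0194 without ENPP1+ATP replicate 2). Partners, regulators and matrix genes called after ENPP1+ATP ranged from 26 to 29, 26 to 29 and 19 to 21 in CFs at 24 h, 25 to 27, 26 to 29 and 22 to 23 at 48 h, and 30 to 34, 30 to 33 and 23 to 25 in NRVMs.

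Same-numbered libraries deviated together little on average (mean correlation 0.0261 in CFs at 24 h, 0.00752 at 48 h and 0.000655 in NRVMs). The highest values were 0.132, 0.111 and 0.124, and 8 of 10, 8 of 10 and 6 of 15 libraries were closest to their own number. With 2 libraries per CF group the deviations mirror each other. Both libraries of a CF group thus always give the same answer and are not separate outcomes. The numbers were therefore not taken to pair the samples, although a weak link in CFs is not excluded. With the replicate number as a block, 2 members were called for CF AMP at 48 h in place of 3 (Tagln, adjusted p = 0.052), and the other counts of members were the same as without it. Tagln, Cnn1, Myh11, Lmod1 and Actg2 were under 3 CPM in every CF library, so their fold changes rest on few reads in 2 libraries per group.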
